A study of Mus musculus with 14 samples.

Results

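The suprabasal cells rich in Krt1 and Krt10 were keratinocytes of mouse back skin picked from 2 droplet-based single-cell RNA libraries (10x) by their content of these keratin transcripts. A barcode was kept when it held at least 1000 unique molecular identifiers (UMIs, the count of distinct captured transcripts), at least 500 genes and at most 10% mitochondrial UMIs. A kept cell counted as suprabasal when Krt1 and Krt10 together made up at least 1% of its UMIs, when it held 0 UMIs of Krt79 (a keratin of the upper hair follicle) and when fewer than 3 of 7 cell division genes (Top2a, Ube2c, Cdk1, Ccnb1, Cenpf, Birc5, Nusap1) were detected. These limits gave 760 cells of 8396, 321 of 4045 in the library of young mice and 439 of 4351 in the library of aged mice.

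The study measured skin epithelium of female mice aged 2 months (young) and 24 months (aged), whose strain the labels spell C57B8 in one field and C57B6 in another. Cells were freed from back skin with trypsin and sorted. The 10x libraries, 1 per age, held lineage-negative, integrin alpha6-positive cells, and the labels state 4000 captured cells for each. RNA-seq (2 libraries per group) and ATAC-seq of open chromatin (1 library per group) covered 2 lineage-negative, alpha6-high populations at both ages, hair follicle stem cells (HFSC, CD34+ Sca1-) and epidermal stem cells (EpdSC, CD34- Sca1+). The labels do not say whether libraries of 1 group came from separate animals or from pools, so a p-value from the RNA-seq data reflects sample-to-sample spread that could be technical. With 1 10x and 1 ATAC-seq library per group, differences there have no replicate check and no test, and their intervals cover counting error only.

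Libraries differed in depth. The median suprabasal cell held 5613 UMIs in the young and 3335 in the aged library, and the median kept cell 3918 and 2302. RNA-seq libraries held 25126808 to 35905505 counts. The ATAC-seq library of aged HFSC held 8456209 window counts against 23376172 to 37912498 in the other 3, and stood apart: its promoters were at a median of 0.55 of the young HFSC level. The 10x libraries shared 33 kept barcodes, and 0 of these were suprabasal in both. A doublet caller (Scrublet) marked 4 young and 3 aged cells and 0 suprabasal cells, too few for the caller to have worked, so no doublets were removed.

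In stratified epidermis, stem and progenitor cells of the basal layer attach to the basement membrane through integrins and build their cytoskeleton from keratins 5, 14 and 15. Cells that leave this layer enter the spinous layer, stop dividing, lose integrins, strengthen desmosomes and switch to keratins 1 and 10. Higher up, granular cells make the proteins and lipids of the cornified barrier. Notch signalling and transcription factors such as Grhl3, Ovol1 and Zfp750 are known to act in this switch.

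Of the 5 marker genes, 4 had a start site in the RefSeq promoter table of mouse build GRCm38.p6 (27025 genes). For a gene with several start sites, the one with the highest summed ATAC-seq level over all libraries was kept. The promoters of the 4 markers are shown because the ATAC-seq data below bear on them. Each line gives the 250 bases before the start, 5′ to 3′ on the gene's strand. Capitals mark TATAAA, 26 bases before the start in Krt10 and 30 bases before it in Krtdap and Mt4, and TGANTCA, the letters of the AP-1 motif, 81 bases before the start in Krtdap. Krt10 lies on the minus strand (chr11:99389365-99389614), Krtdap on the plus strand (chr7:30787655-30787904), Mt4 on the plus strand (chr8:94136954-94137203) and Krt77 on the minus strand (chr15:101869706-101869955).
Krt10: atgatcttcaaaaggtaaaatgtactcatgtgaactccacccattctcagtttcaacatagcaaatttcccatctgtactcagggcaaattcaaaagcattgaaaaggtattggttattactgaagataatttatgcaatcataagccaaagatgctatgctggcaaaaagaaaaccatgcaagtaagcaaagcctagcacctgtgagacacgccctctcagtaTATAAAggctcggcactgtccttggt
Krtdap: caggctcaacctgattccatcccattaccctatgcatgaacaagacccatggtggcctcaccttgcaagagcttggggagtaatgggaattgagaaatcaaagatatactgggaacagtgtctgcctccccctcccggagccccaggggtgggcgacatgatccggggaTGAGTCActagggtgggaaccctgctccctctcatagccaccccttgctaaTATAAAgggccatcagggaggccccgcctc
Mt4: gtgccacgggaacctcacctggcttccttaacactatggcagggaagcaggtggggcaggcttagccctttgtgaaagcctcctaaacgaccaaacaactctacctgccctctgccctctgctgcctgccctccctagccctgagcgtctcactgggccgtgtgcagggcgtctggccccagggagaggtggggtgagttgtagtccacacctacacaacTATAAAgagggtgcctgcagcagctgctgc
Krt77: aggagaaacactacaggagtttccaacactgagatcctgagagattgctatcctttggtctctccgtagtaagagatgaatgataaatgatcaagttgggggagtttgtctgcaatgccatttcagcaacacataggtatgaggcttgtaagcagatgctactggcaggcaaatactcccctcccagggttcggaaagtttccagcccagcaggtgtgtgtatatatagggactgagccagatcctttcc
TATAAA (both strands searched) was in 14 of 43 promoters of the suprabasal gene lists and in 12.6% of all promoters of this length. TGANTCA was in 13 of 43 and in 6.84% of all, and in 1 of 14 promoters of the 20 genes that led the suprabasal cells in the 10x data. GGGCGG was in 8 of 43 and in 33.7% of all, and CCAAT in 16 of 43 and 34.4% of all. These counts describe letters in a window and not bound sites.

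Suprabasal cells made up 7.94% of kept cells in the young library (exact binomial 95% interval 7.12 to 8.81) and 10.1% in the aged library (9.21 to 11.0). The limit on Krt79 left out 98 young and 36 aged cells that passed the keratin limit, of which 68 and 33 held a single Krt79 UMI. Without that limit the shares were 10.4% and 10.9%. The limit on cell division genes left out 0 young and 3 aged cells. The 1% limit did not fall in an empty range: 14 young and 13 aged cells lay between 0.9% and 1%, and 15 and 19 between 1% and 1.1%. From 0.5% to 1% there were 49 young and 100 aged cells, and from 1% to 1.5% 72 and 79. With cells thinned to 1000 UMIs each the shares were 9.62% and 10.6%, a smaller gap than without thinning.

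The cells that the rule selected carried the markers of the suprabasal layer. All values in this paragraph are levels, in CPM (summed UMIs of a gene, scaled to a common total of all UMIs), of the genes or cells that the rule chose and are given as a description. The comparison cells were 1344 young and 1466 aged Sca1 basal cells, with at least 1 UMI of Ly6a (the gene of Sca1), below the 1% limit, without Krt79 and Cd34 UMIs and within the limit on cell division genes. Krt10, the acidic partner in the suprabasal keratin filament, stood at 15964 CPM in young and 15657 in aged suprabasal cells, against 524 and 428 in Sca1 basal cells. Krt1, its basic partner, stood at 5076 and 10434, against 119 and 408. Krtdap, a secreted protein associated with keratinocyte differentiation, was at 9651 and 10286, against 245 and 262. Mt4, a metallothionein of stratified epithelia, was at 2367 and 3246, against 88.3 and 167. Krt77, a basic keratin known in human skin from sweat gland ducts, was at 2259.7 and 694, against 123 and 24.5. All 5 were thus at least 18.4 times as high as in Sca1 basal cells of the same library.

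**Figure D1:**
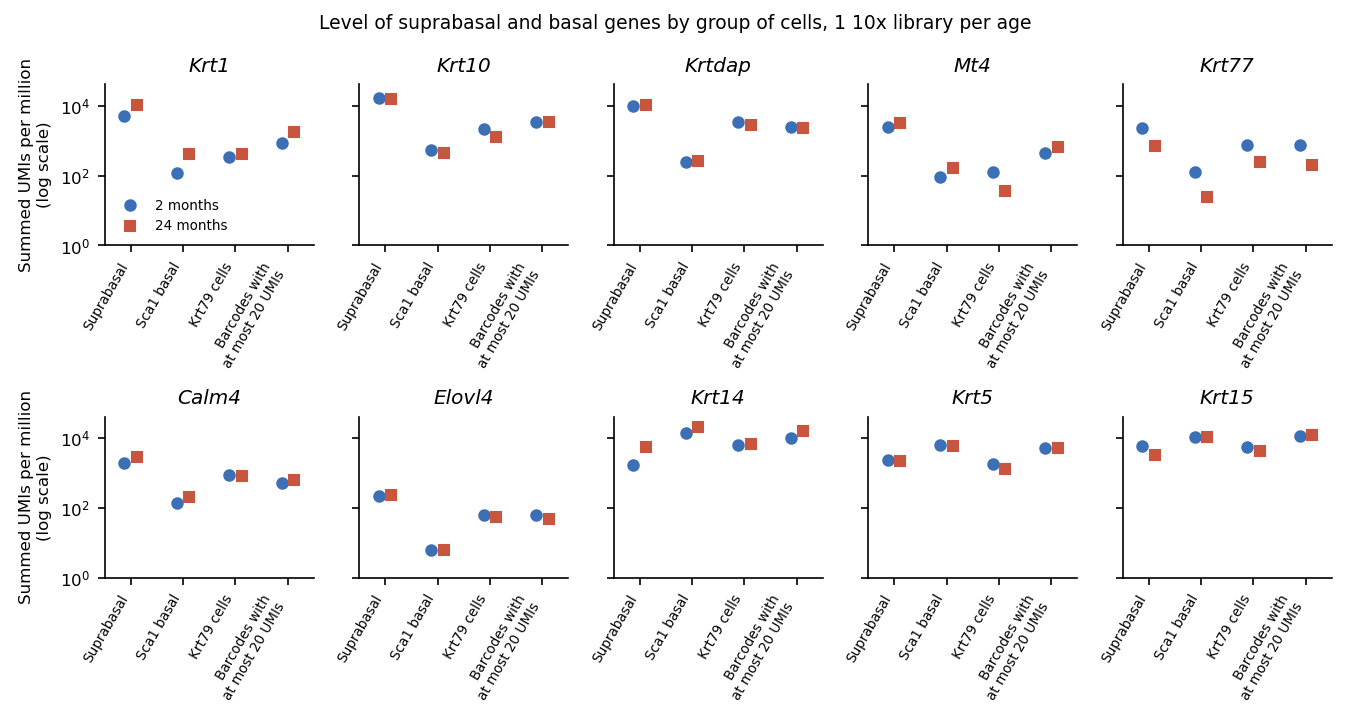
Level of 10 genes (vertical axis, CPM on a log scale) in suprabasal cells, Sca1 basal cells, cells with at least 2 Krt79 UMIs and barcodes with at most 20 UMIs, which hold free RNA. Circles are the library of 2-month-old and squares that of 24-month-old mice. Krt1, Krt10, Krtdap, Mt4, Krt77, Calm4 and Elovl4 sit highest in suprabasal cells, and Krt14, Krt5 and Krt15 sit lower there than in Sca1 basal cells.

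The 20 genes that led the suprabasal cells, ranked by the lower of their ratios over Sca1 basal cells in the 2 libraries, held all 5 markers and reached from 4833423E24Rik (ratio 50.2) down to Tesc (11.8). Several act on lipids. Elovl4, which elongates very long fatty acids for ceramides, was at 222 and 225 CPM in young and aged suprabasal cells and at 6.23 and 6.25 in Sca1 basal cells. Acer1, a ceramidase, was at 223 and 182 against 7.10 and 8.85. Fabp5, the epidermal fatty acid carrier, was at 547 and 484 against 31.7 and 27.6. Sult2b1, which makes cholesterol sulfate, was at 94.2 and 72.7 against 5.71 and 4.68. None of these 4 lipid genes differed by 2-fold between the libraries.

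Other leading genes were Calm4, a calmodulin-like protein (1846 and 2809 CPM), the Ly6 family surface proteins Ly6g6c (807 and 544) and Ly6g6e (151 and 86.9), Gsta2, a glutathione transferase (94.2 and 56.0), Hpgds, a prostaglandin D synthase (228 and 192), and Skint6 (87.6 and 41.8). Some of these were shared with cells that held at least 2 Krt79 UMIs, whatever their Krt1 and Krt10 share, and some were not. Ly6g6c stood at 954 and 750.0 CPM in the Krt79 cells, Pvrl4 at 72.9 and 58.7 and Krtdap at 3461 and 2719.8. Mt4 stood there at only 129.8 and 36.1 CPM, Gm94 at 45.1 and 31.6, Hpgds at 21.7 and 24.8, and Gsta2 at 6.94 and 0.

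Genes of the spinous layer were mostly higher than in Sca1 basal cells and most granular genes were low or not detected. Of 20 spinous genes, 17 had at least 20 UMIs in suprabasal cells, and 14 of these were at least 2-fold above Sca1 basal cells in both libraries. The share of all genes that far above was 4.11% in the young and 3.75% in the aged library, and the share that far below was 14% and 12.5%. These shares are per library, over genes with at least 20 UMIs in suprabasal and Sca1 basal cells together. List genes, here and in the following paragraphs, had to reach 20 UMIs in suprabasal cells alone. That filter favours genes high in suprabasal cells, so the shares are not a like-for-like background. The rule chose these cells, so nothing is read from that contrast. Among the 14 were Dmkn, a secreted dermokine (4254 and 4922 CPM against 993 and 1345), the lectin Lgals3 (3821 and 4019 against 1304 and 1596), Sbsn (1208 and 1151 against 103 and 106) and Dsg1a (609 and 691 against 166 and 195). Of 34 granular and cornified envelope genes only 11 reached 20 UMIs, 9 had 0 UMIs in both libraries, and 7 of the 11 were 2-fold above. Lor, the main protein of the cornified envelope, held 24 and 9 UMIs in all suprabasal cells together (13.2 and 5.79 CPM against 7.62 and 4.94 in Sca1 basal cells). Spink5, a protease inhibitor of the granular layer, was at 92.6 and 54.7 CPM against 9.00 and 7.55.

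Basal genes were lower but present. Of 17 measured basal layer genes 12 were at least 2-fold below Sca1 basal cells in both libraries. Itgb4, the hemidesmosome integrin chain, was at 24.8 and 32.2 CPM against 139 and 144. Itga6, the integrin used in the sort, was at 100.3 and 104 against 309 and 329. Trp63, the master regulator of stratified epithelium, was closer, at 413 and 377 against 552 and 535. Krt15 stood at 5903 and 3176 against 10448 and 10594. The cyclins Ccnd1 (8.27 and 10.3 against 106 and 84.8) and Ccnd2 (73.3 and 88.2 against 872 and 637) were low, and the cyclin-dependent kinase inhibitor Cdkn1a was high (427 and 356 against 75.3 and 79.9). At 1000 UMIs per cell, Cdkn1a was detected in 31.5% of young and 28.0% of aged suprabasal cells and in 6.77% and 6.48% of Sca1 basal cells. Unthinned, the median depths were 5613 and 3335 UMIs in suprabasal and 4157 and 2491 in Sca1 basal cells.

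In the Notch pathway, 10 of 21 genes were measured and 3 were 2-fold above Sca1 basal cells in both libraries. The receptor Notch3 was at 42.4 and 29.6 CPM against 3.98 and 4.16. Its target genes Hes1 (234 and 222 against 101 and 94.5) and Nrarp (99.2 and 105 against 20.4 and 32.3) were the other two. The receptor Notch1 was level, at 66.7 and 66.9 against 66.5 and 58.5. Of 26 measured differentiation transcription factors 7 were 2-fold above in both libraries and 2 below. Zfp750 was at 79.9 and 56.0 against 4.15 and 5.20, Grhl1 at 57.9 and 64.4 against 11.9 and 13.3, and Ovol1 at 34.2 and 25.7 against 5.88 and 6.25. Klf4 was at 598 and 428 against 448 and 234, which is under 2-fold in both libraries. The same factors were also present in the Krt79 cells (Zfp750 at 81.2 and 45.2, Ovol1 at 43.0 and 22.6).

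Of 10 measured Skint genes 8 were 2-fold above Sca1 basal cells in both libraries. The founding member of this family of membrane proteins is needed for epidermal gamma-delta T cells to develop. Skint9 was at 146 and 43.8 CPM against 12.5 and 2.34. Of 25 measured barrier lipid genes 9 were 2-fold above in both libraries, of 10 desmosome genes 3 and of 11 tight and gap junction genes 1. Of 19 measured MHC and interferon genes 0 were above and 3 below in both libraries.

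Marker lists of other cell types were compared with Sca1 basal cells of the same library by their summed level. The sums were 1.65 and 0.644 CPM for melanocytes against 5.37 and 5.20 (8 genes, 5 with 0 UMIs in both libraries), 2.76 and 8.37 for fibroblasts against 105 and 199 (7 genes, 5 with 0), 4.41 and 20.6 for T cells against 55.4 and 194.6, and 0.551 and 1.29 for pericytes against 4.15 and 3.90 (6 genes, 5 with 0). Merkel cell genes summed to 0.551 and 0 against 0 and 0.260 (7 genes, 6 with 0), endothelial genes to 13.2 and 12.2 against 19.7 and 16.1 (6 genes, 5 with 0) and inner root sheath genes to 11.6 and 12.2 against 20.1 and 19.5. The other lists were closer to the level of basal cells or far from 0. Langerhans and myeloid genes summed to 51.3 and 21.2 against 64.2 and 28.9, sebaceous genes to 164 and 153 against 126 and 173, and bulge genes, mostly Krt15, to 5946 and 3201 against 10625 and 10692. Upper hair follicle and cycling genes, which the rule itself limits, summed to 481 and 406, and to 70.5 and 94.6. In barcodes with at most 20 UMIs the basal gene Krt14 stood at 9939 and 15294 CPM. Free RNA, estimated from the Krt79 cell genes Defb6 and Krt17, made up at most 5.68% of young and 7.95% of aged suprabasal UMIs. As a reference for free RNA, Krt10 was found in 19.6% and 21.7% of Cd34 cells thinned to 1000 UMIs and Krt1 in 4.67% and 5.80%.

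Split by their Krt1 and Krt10 share, 72 young cells lay between 1% and 1.5%, 87 between 1.5% and 2%, 133 between 2% and 3%, and 29 at 3% or more. The aged cells numbered 79, 78, 163 and 119 in the same order, so the top range held 9.03% of young and 27.1% of aged suprabasal cells. Krt1 itself sets this split, and its level was higher in the aged library.

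Along this range Krtdap, Elovl4, Fabp5 and Ly6g6c were higher and Krt5 and Krt15 lower in both libraries. These genes were picked after their values were seen, and the levels come from the cells that define the range and carry no test. Fabp5 went from 299.5 CPM in the lowest to 1324 in the highest range in the young library and from 116 to 969 in the aged library. Elovl4 went from 114 to 382 and from 78.5 to 365. Krtdap went from 4973 to 13367 and from 2442 to 16602. Ly6g6c went from 408 to 1049 and from 149 to 992. In the other direction Krt15 went from 9407 to 2424 and from 6240.0 to 1296, and Krt5 from 4127 to 1319 and from 4856 to 665. Other genes of these lists did not follow that order in both libraries. Trp63 stood at 423, 479, 409 and 259.7 CPM from the lowest to the highest range in the young library. In the aged library Trp63 fell at each step, at 496, 434, 361 and 311 CPM. Klf4 went from 641 to 494 in the young library and from 422 to 415 in the aged one. In the range of 1.5% to 2%, Krtdap was at 9307 CPM in young and 4210.5 in aged cells, and Ly6g6c at 874 and 167.

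Krt14 differed between the libraries most in the middle of the range. It stood at 4342, 848, 913 and 1253 CPM from the lowest to the highest range in young cells, and at 13236, 9067, 3778 and 1689.6 in aged cells. The aged level was 10.7 times the young level between 1.5% and 2%, and 1.35 times at 3% or more.

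**Figure D2:**
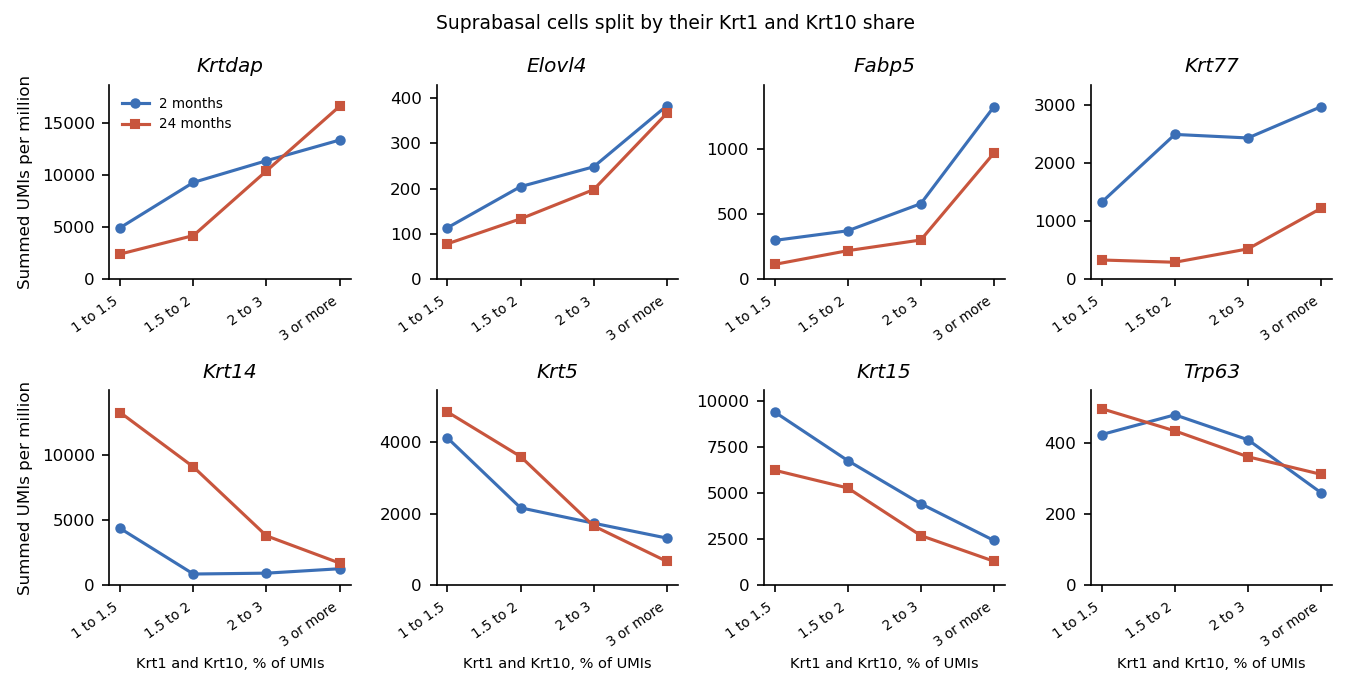
Levels of 8 genes (vertical axes from 0, CPM) in suprabasal cells grouped by the percent of their UMIs from Krt1 and Krt10 (horizontal axis, 4 ranges), circles for the library of 2-month-old and squares for that of 24-month-old mice. Krtdap, Elovl4 and Fabp5 are higher in the rightmost than in the leftmost range and Krt5 and Krt15 lower, young Krt14 is lowest in the second range from the left, and Krt77 is lower in the aged library in every range.

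The keratin mix of the suprabasal cells differed between the young and the aged library. Krt1 was 2.06 times as high in the aged library (counting interval 2.00 to 2.11), while Krt10 was level at 0.981 times (0.964 to 0.998). The ratio of Krt1 to Krt10 UMIs was therefore 0.318 (0.311 to 0.326) in young and 0.666 (0.653 to 0.680) in aged suprabasal cells. The same ratio was 0.228 and 0.953 in Sca1 basal cells and 0.159 and 0.311 in Krt79 cells, so all 3 groups of cells had more Krt1 per Krt10 in the aged library. In barcodes with at most 20 UMIs, which hold free RNA, the ratio was 0.244 and 0.533. The part of free RNA in the values of Sca1 basal and Krt79 cells was not tested. The rule sums these keratins and does not fix their ratio, but it does use both.

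Krt77 was lower in the aged library, at 0.307 times the young level (0.287 to 0.328). The median young suprabasal cell had 0.179% of its UMIs from Krt77 and the median aged cell 0.0312%. At 1000 UMIs per cell Krt77 was found in 79.8% of young and 32.6% of aged suprabasal cells (unthinned 95.3% and 59.0%), against 1.87% and 0% of Cd34 cells, where 0 of 69 aged cells allows up to 4.35%. It was lower in the aged library in Sca1 basal cells too, at 123 and 24.5 CPM, and in Krt79 cells, at 727 and 244 CPM. Barcodes with at most 20 UMIs held Krt77 at 741 and 194 CPM. Mt4 was 1.37 times as high (1.32 to 1.43), Krtdap 1.07 times (1.04 to 1.09) and Calm4 1.52 times (1.45 to 1.59).

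Krt14 was 3.16 times as high in aged suprabasal cells (3.04 to 3.30), at 1697 and 5368 CPM, against 1.42 times in Sca1 basal cells. Its basal partner Krt5 was at 0.911 times (0.870 to 0.954) and Krt15 at 0.538 times (0.520 to 0.556), so the basal keratins did not move together. Krt14 was higher in the aged library from the 10th percentile of cells upward. The median cell held 0.0516% Krt14 UMIs in the young and 0.128% in the aged library. The 75th percentile was 0.0865% and 0.666%, the 90th 0.371% and 1.97%, and the highest cell held 2.95% and 4.55%. Krt14 also made up more of the free RNA in the aged library. With free RNA subtracted it stood at 1132 and 4153 CPM, and without the 5% of cells that held the most UMIs the ratio was 4.11. The part of cell pairs in a droplet was not tested.

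Few genes differed by 2-fold between the libraries in these cells. Among 8071 genes with at least 20 UMIs in suprabasal cells of both libraries together, 2.5% were at least 2-fold higher and 3.35% at least 2-fold lower in the aged library (202 and 270 genes), and the median log2 ratio was -0.01. Of the 4 suprabasal keratins 1 was 2-fold higher (Krt1) and 1 lower (Krt77), of 17 spinous genes 1 higher (Calml3, 8 and 19 UMIs) and 0 lower, and of 11 granular genes 0 higher and 1 lower (Lor).

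The genes with the largest ratios upward, among those with at least 50 UMIs in the higher library, were Glul, glutamine synthetase, at 5.74 times (3.05 to 11.7), Mgst1, a microsomal glutathione transferase, at 4.01 times, Cd24a at 3.93 times, Cpe, carboxypeptidase E, at 3.91 times, Acp5 at 3.47 times and Casp1, the inflammatory caspase, at 3.45 times. Slc6a6, the taurine transporter (3.20), Krt14, Aldh3a1, a detoxifying aldehyde dehydrogenase (3.14), the kinase gene Sgk1 (3.08) and Abhd2 (3.03) followed. Krt6a, a keratin of wounded skin, was at 3.26 times, but on 24 and 67 UMIs, at 0.729 times among cells with a keratin share of 2% or more and at 25.1 times without the 5% of cells with the most UMIs. Of these genes Glul, Mgst1, Cpe, Acp5, Casp1, Krt6a, Sgk1 and Abhd2 were also at least 2-fold higher in aged Sca1 basal cells. Glul and Cpe were at far lower levels in suprabasal than in Sca1 basal cells (Glul 6.61 and 38.0 CPM against 62.7 and 239).

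The genes with the largest ratios downward were Atf3, a stress-induced transcription factor, at 0.121 times (0.0426 to 0.279), Pglyrp4, a peptidoglycan recognition protein, at 0.124 times (0.0598 to 0.230), Rasl10a at 0.167 times and Sult5a1 at 0.215 times. With free RNA subtracted Sult5a1 stood at 0.0213 times and Sostdc1 at 0.144 times. Usp18, an interferon-induced protease (0.220), Hoxa5 (0.230), the circadian factor Dbp (0.244), Spink4 (0.252), the protein kinase A inhibitor gene Pkib (0.258), the BMP and WNT antagonist Sostdc1 (0.273), Skint10 (0.287) and the sodium pump subunit Atp1b1 (0.292) followed. Pkib was the most abundant of them, at 479 and 124 CPM, and was at 0.261 times in Sca1 basal cells. Atf3, Pglyrp4 and Dbp were also at least 2-fold lower in aged Sca1 basal cells (0.0693, 0.189 and 0.161 times), as were Sult5a1 (0.393), Usp18 (0.378) and Hoxa5 (0.437). Spink4 stood at 28.1 and 7.08 CPM in suprabasal cells and held too few UMIs in Sca1 basal cells for a ratio.

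**Figure D3:**
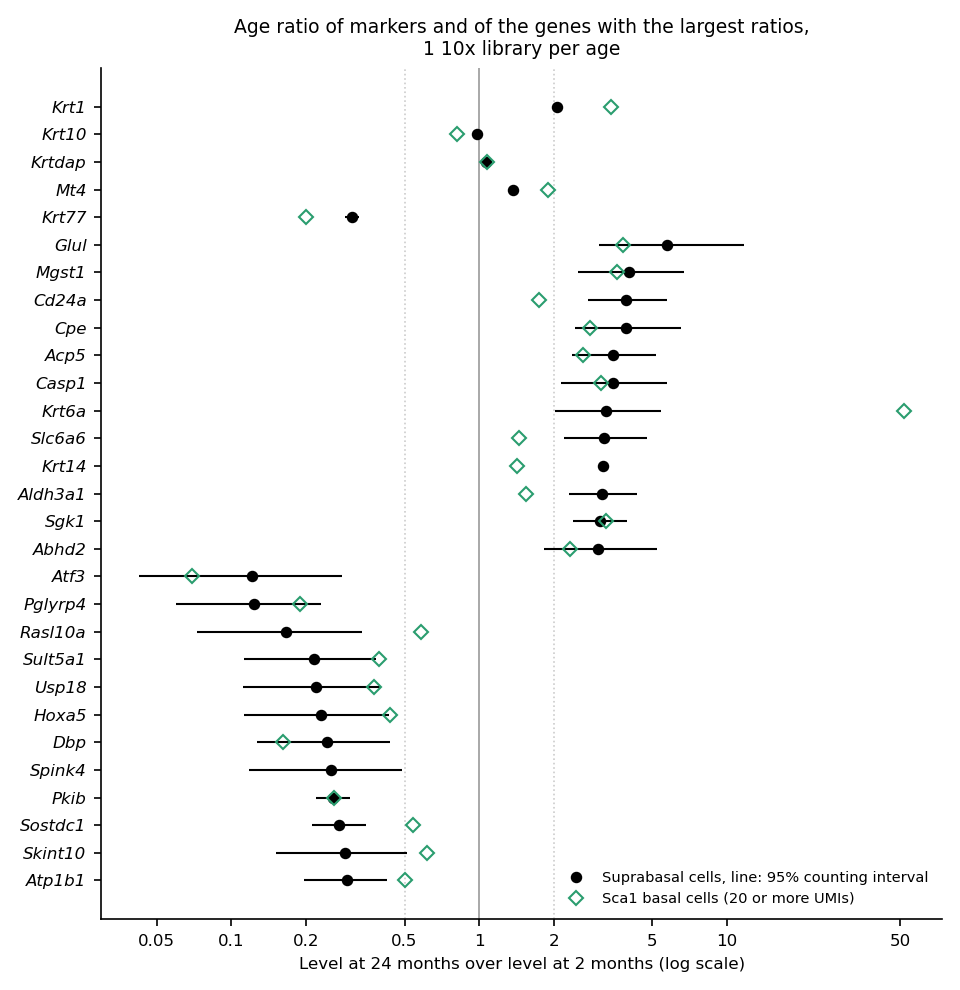
Level at 24 months over level at 2 months (horizontal log axis) for the 5 markers, the 12 genes with the highest and the 12 with the lowest ratio in suprabasal cells. Filled circles with lines are suprabasal cells with the 95% counting interval, and open diamonds are Sca1 basal cells where at least 20 UMIs were counted. Krt77 is at 0.307 and Krt1 at 2.06 in suprabasal cells, and the diamonds lie on the same side of 1 as the circles for the named genes they are drawn for.

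By list, 4 of 10 Skint genes were 2-fold lower in the aged library and 0 higher, with a median log2 ratio of -0.82, and their sum was 662 CPM in young and 421 in aged suprabasal cells. Skint1 (0.914 times) and Skint11 (1.05 times) stayed near level, while Skint9 stood at 0.301 times. Of 22 immediate early and heat shock genes 5 were 2-fold lower and 0 higher (median -0.51), among them Fosb (0.359 times) and Jun (0.493 times). These genes are known to respond to tissue dissociation, and their sum was also lower in aged Sca1 basal cells (6499 and 4371 CPM) and in barcodes with at most 20 UMIs (7706 and 4826). In the RNA-seq libraries of EpdSC the list went the other way, with 23 of 27 genes at a higher value in aged mice, a median log2 difference of 0.52, and sums of 12622 and 10290 CPM in young and 16223 and 15623 in aged libraries. There edgeR called 0 of these genes, 9 were higher and 1 lower at an unadjusted p under 0.05, and DESeq2 called 1 higher and 0 lower. In the 10x suprabasal cells 3 of 19 MHC and interferon genes were 2-fold lower and 1 higher (Casp1). Of 25 barrier lipid genes 0 were 2-fold higher and 1 lower. In RNA-seq, edgeR called 2 of 28 MHC and interferon genes higher with age in EpdSC and 8 in HFSC, and 0 lower. The shares of all genes called higher were 0.0559% and 0.294%. Of 11 Skint genes 4 had a higher value in aged EpdSC (median log2 -0.10, 0 called) and 11 in aged HFSC (median 1.62, 2 called higher).

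The bulk RNA-seq libraries were not used to choose the cells and have replicates. They hold alpha6-high cells, so suprabasal transcripts there come from whatever suprabasal cells passed the sort or from low levels in basal cells, and in bulk samples fewer cells of a type and less RNA per cell cannot be told apart. All following bulk levels are CPM of read counts, and tests are edgeR quasi-likelihood tests with Benjamini-Hochberg adjustment over 21464 genes and a call at 0.05.

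Suprabasal transcripts were far more abundant in EpdSC than in HFSC libraries. Krt1 was at 2.70 and 18.0 CPM in the 2 young HFSC libraries and at 709.9 and 766 in the 2 young EpdSC libraries, and at 60.6 and 76.8 against 1272 and 1660.0 in aged mice. The groups did not overlap, and the log2 difference was 6.17 ± 0.65 (SE, adjusted p = 2.53e-05) in young and 4.42 ± 0.59 (adjusted p = 0.000185) in aged mice. Krt10 was at 845 and 981 CPM in the young and 1193 and 1178 in the aged EpdSC libraries, and at 13.7 and 61.2 in the young and 115 and 143 in the aged HFSC libraries. Krt77 was at 1453 and 1391, then 1726 and 1172, then 22.9 and 131, then 240.1 and 254 in the same order. Krtdap and Mt4 followed the same order of groups, and Mt4 was at 0 and 0.236 CPM in young HFSC against 15.7 and 17.2 in young EpdSC. For each of the 5 markers the EpdSC libraries lay above all HFSC libraries. The share of all genes that separate this way was not computed. Of all genes, 13% were called higher in EpdSC in young and 12.2% in aged mice.

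Of the 58 genes of the 3 suprabasal lists (suprabasal keratins, spinous, granular and cornified envelope) 53 could be tested. In young mice 23 were higher and 4 lower in EpdSC, against 13% and 13.1% of all genes, with a median log2 difference of 0.88 against -0.06 over all genes. In aged mice 21 were higher and 5 lower, against 12.2% and 11.9%, with a median of 0.73 against -0.09. All 4 suprabasal keratins were higher at both ages. Of 20 spinous genes 11 were higher and 3 lower in young mice, and of 29 granular genes 8 and 1. Desmoglein Dsg1a was higher (log2 4.34 ± 0.25, adjusted p = 2.31e-07 in young mice), as were Calm5 (6.33 ± 0.34, 1.28e-07), Tgm3, a transglutaminase of the cornified envelope (4.35 ± 0.45, 2.23e-05), and Ptgs1 (5.07 ± 0.65, 0.000108).

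Some genes usually listed as suprabasal were lower in EpdSC. Calml3 was at 472 and 718 CPM in young HFSC and 3.59 and 5.95 in young EpdSC (log2 -6.96 ± 0.48, adjusted p = 7.79e-07), and Tgm5, an epidermal transglutaminase, at 923 and 1037 against 3.12 and 7.50 (log2 -7.53 ± 0.45, adjusted p = 2.83e-07). Sbsn was lower too, at 107 and 110.4 against 37.3 and 38.8. In the 10x data Calml3 stood at 4.41 and 12.2 CPM in suprabasal cells and at 262 and 393 in Krt79 cells. Of the 20 genes that led the 10x suprabasal cells, 19 were higher in young EpdSC and 18 in aged EpdSC, and the exception in young mice was Them5 (log2 0.05 ± 0.45, adjusted p = 0.957). In aged mice Fabp5 was not called either (log2 0.45 ± 0.37, adjusted p = 0.443). The calls of Fabp5, Perp and Tgm1 in young mice and of Tesc, Krt2, Gsta2, Dmkn, Scel, Cst6 and Spink5 in aged mice were lost when 1 library was left out.

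**Figure D4:**
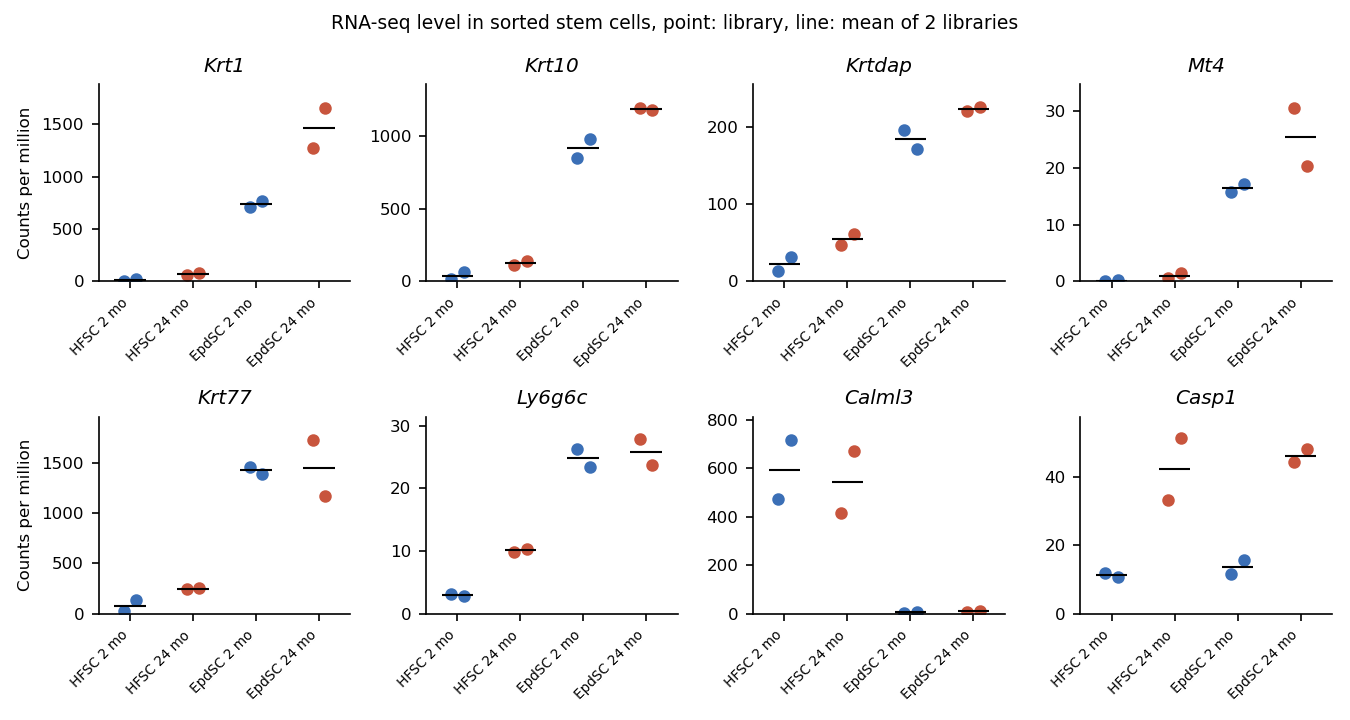
RNA-seq level (vertical axes from 0, CPM) of the 5 markers, Ly6g6c, Calml3 and Casp1 in hair follicle stem cells (HFSC) and epidermal stem cells (EpdSC) at 2 and 24 months. Points are libraries and lines the mean of 2 libraries. The markers are highest in EpdSC, Calml3 is highest in HFSC, and Casp1 is higher in both aged groups.

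With age, suprabasal transcripts in EpdSC were not called as changed. Of the 53 genes 0 passed the adjusted threshold in edgeR and 0 in DESeq2, against 0.0839% of all genes in either direction (0.0559% higher and 0.028% lower), and 5 had an unadjusted p under 0.05, all higher in aged mice. The median log2 difference was 0.38, and 43 of 53 were higher in aged EpdSC. Krt1 had a log2 difference of 0.99 ± 0.52 (adjusted p = 1), Krt10 of 0.38 ± 0.45 and Mt4 of 0.63 ± 0.39 (both adjusted p = 1). Krt77, which was at 0.307 times its young level in the aged 10x suprabasal cells, had a log2 difference of 0.03 ± 0.52 in EpdSC, and the 2 aged libraries (1726 and 1172 CPM) enclosed both young ones (1453 and 1391).

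In HFSC no gene of the suprabasal lists passed the threshold with age in the main edgeR fit. Of 53 genes 38 had a higher value in aged mice, the median log2 difference was 0.69, 22 had an unadjusted p under 0.05, all higher, and 0 were called in edgeR, where 0.368% of all genes were called in either direction (0.294% higher and 0.0745% lower). DESeq2 called 10. The smallest adjusted p was 0.053 (Cst6), and Krt1 had a log2 difference of 2.74 ± 0.57 (adjusted p = 0.0806). Of the 20 leading genes 20 were higher and 1 was called: Ly6g6c was at 3.13 and 2.87 CPM in young and 9.86 and 10.3 in aged HFSC (log2 1.75 ± 0.20, adjusted p = 0.0089). That call was lost when only the 4 libraries compared were fitted (adjusted p = 0.0795), and DESeq2 called 7 of the 20. The young HFSC libraries differed from each other: the summed level of the 5 markers was 53.2 and 242 CPM in young, and 463 and 537 in aged HFSC. Leaving out young HFSC replicate 2, the higher of these, gave 8 called genes of 53. Summed over the 58 genes the groups overlapped, at 6237 and 6786 CPM in young and 6176 and 7369 in aged HFSC. The upper hair follicle list (10 of 10 genes with a higher value in aged HFSC) summed to 1040.4 and 1274 CPM in young and 1325 and 2109 in aged HFSC, and the sebaceous list (9 of 10) to 409 and 493, and 636 and 816. In edgeR 0 genes of either list were called, 6 upper follicle and 6 sebaceous genes were higher at an unadjusted p under 0.05, and DESeq2 called 2 and 3 higher. None of the 10 genes of either list was at 0 in the young or aged HFSC libraries, and the part of these cells in the result was not tested.

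The age effects in EpdSC and HFSC shared no control samples, and their difference was tested directly. Of the 53 genes 0 differed, against 0% of all genes with a larger and 0.00466% with a smaller age effect in EpdSC. Unadjusted, 14 had a p under 0.05, of which 1 had the larger effect in EpdSC. DESeq2 called 0.

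Among the 24 genes with the largest 10x age ratios, Casp1 was the one called in EpdSC, where it was at 11.7 and 15.8 CPM in young and 44.3 and 48.0 in aged libraries (log2 1.75 ± 0.23, adjusted p = 0.0176). In HFSC it was at 11.8 and 10.7, and 33.3 and 51.2 (log2 1.91 ± 0.23, adjusted p = 0.00927). Cpe was called in HFSC (log2 0.81 ± 0.14, adjusted p = 0.0363) and had a log2 difference of 0.60 ± 0.14 in EpdSC (adjusted p = 0.284). Atf3, at 0.121 times in the 10x suprabasal cells, had a log2 difference of 0.61 ± 0.42 in EpdSC (adjusted p = 1). Pglyrp4 (-0.86 ± 0.33), Pkib (-0.58 ± 0.27) and Sult5a1 (-0.65 ± 0.20) had negative values that were not called (adjusted p = 1, 1 and 0.781).

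Chromatin at suprabasal gene starts was more accessible in EpdSC than in HFSC. Levels are ATAC-seq CPM within 500 bases on each side of the start, from 1 library per group. Krt10 was at 2.53 and 2.91 in the young and the aged EpdSC library, and at 0.562 and 0.355 in the young and the aged HFSC library. Krt77 was at 4.83, 4.83, 1.05 and 0.828 in the same order, Krtdap at 5.04, 5.65, 2.02 and 1.89, and Mt4 at 1.69, 1.37, 0.300 and 0.591. In young mice Krt10 was 4.51, Krtdap 2.49 and Mt4 5.63 times as accessible in EpdSC. The start of each of these 4 genes was more accessible in both EpdSC libraries than in either HFSC library. The share of all promoters that separate this way was not computed. At the high-coordinate end of Krt1 (mm10, chromosome 15, position 101850786) the levels were 5.12, 6.59, 0.450 and 0.355 in the same order, a ratio of 11.4 (counting interval 6.37 to 22.4) in young mice. At the other end of the gene (position 101845426) they were 1.90, 2.01, 0.862 and 0.473. In aged mice the median ratio of EpdSC over HFSC was 2.01 over all promoters. Scaled by that median, the aged ratio was 4.07 for Krt10, 2.90 for Krt77, 1.48 for Krtdap and 1.15 for Mt4.

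Of the suprabasal lists 33 genes had at least 20 counts in the 2 young libraries, and 18 were 2-fold more and 2 less accessible in EpdSC, against 12.9% and 7.31% of all promoters, with a median ratio of 2.23 against 1.03. In aged mice 22 of 29 were more and 1 less accessible, against 50.6% and 2.68%, with a median of 3.98 against 2.01 over all promoters. The aged HFSC library moves that background, and with the ratios scaled by the median over all promoters 14 were more and 2 less accessible. Of the 14 measured leading genes 13 were 2-fold more accessible in young EpdSC and 12 in aged EpdSC, or 6 in aged EpdSC with the ratios scaled by the median over all promoters. Among them, Calm4 was at 0.487 in young HFSC and 3.03 in young EpdSC, and Skint6 at 0.524 and 4.17. The less accessible ones in young EpdSC were Tgm5 (13.6 in HFSC and 2.03 in EpdSC) and Krt2 (1.46 and 0.106). Tgm5 transcripts were lower in EpdSC and Krt2 transcripts higher.

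Accessibility at these starts was close to level with age in EpdSC. Of 32 measured genes 0 were 2-fold higher and 0 lower, against 1.67% and 2.6% of all promoters, and the median ratio was 1.05. Krt77, whose transcripts were lower in the aged 10x library, was at 1.00 times its young accessibility. In HFSC 0 of 22 were higher and 12 lower, against 1.25% and 34.9%, with a median of 0.48 against 0.55 over all promoters. Scaled by the median over all promoters, 1 was higher and 0 lower.

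**Figure D5:**
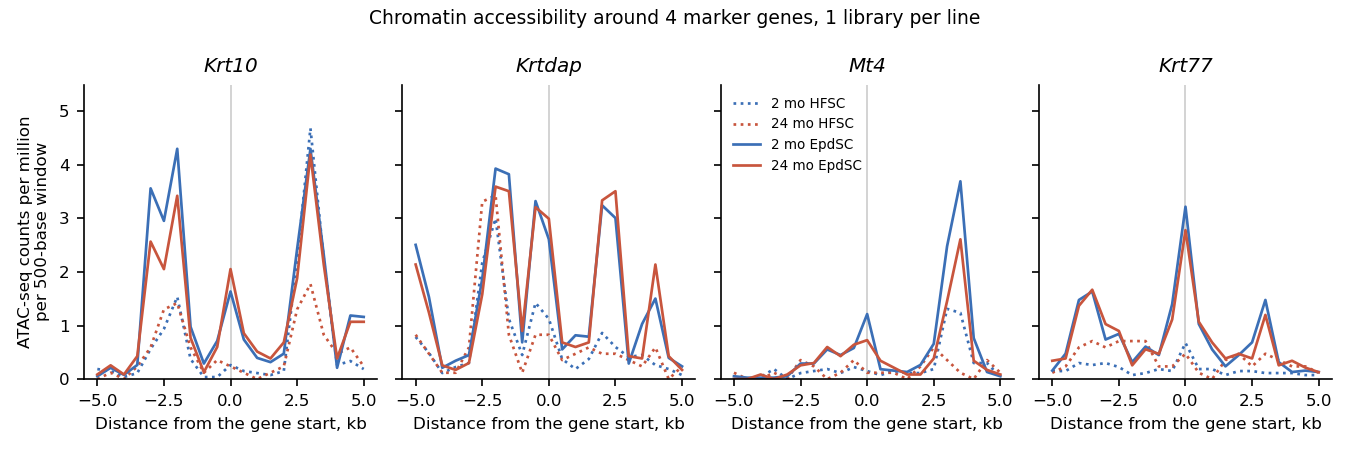
ATAC-seq CPM in 500-base windows (vertical axis from 0) by distance from the gene start in kb (horizontal axis) for Krt10, Krtdap, Mt4 and Krt77. Solid lines are EpdSC and dotted lines HFSC, with 1 library per line. At distance 0 both EpdSC lines lie above both HFSC lines for the 4 genes, and at that point the aged EpdSC line lies below the young one for Mt4 (0.727 and 1.21) and Krt77 and above it for Krt10 and Krtdap.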

How the data were processed

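The authors deposited 10x matrices of UMI counts per gene and barcode, RNA-seq read counts per gene and ATAC-seq read counts in 500-base windows stepping by 250 bases. None was normalized, and each column was checked to hold whole-number counts. Per the submitters' processing notes, STAR, Bowtie and Cell Ranger and the build mm10 were used. The counter, annotation release and strand setting were not given in the sources used here.

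The members and the 30 gene lists were chosen with earlier results of these data known. Suprabasal cells were selected with numpy 2.4.6, pandas 2.3.3 and scipy by the stated limits, and their UMIs were summed per library (1814406 young, 1553724 aged). Scrublet was run through scanpy 1.11.5. Ratios carry exact 95% counting intervals (scipy 1.17.1). RNA-seq counts were tested in 1 fit of 8 libraries with edgeR 4.0.16 (R 4.3.3, filterByExpr, TMM, glmQLFit), with DESeq2 1.42.0 as an alternative. ATAC-seq windows within 500 bases of each start were summed, non-overlapping, and divided by all counts. The fits were tested on simulated data.

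Named are the 5 markers, members of the lists, the 20 genes with the highest ratio over Sca1 basal cells in both libraries (at least 200 UMIs), up to 12 genes per direction by age ratio (at least 50 UMIs in the higher library, no predicted or mitochondrial genes), and the called genes of the suprabasal lists. Alternatives covered the cell limits, scaling, low-count filters, the replicate block and leaving out each library. Subtracting free RNA and leaving out the 5% of cells with the most UMIs were chosen after seeing the data.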

Additional observations from a re-analysis of the deposited data

Results flagged for a closer look

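Mt4 was 1.37 times as high in aged as in young suprabasal cells, and 0.278 times as high (0.157 to 0.460) in cells with at least 2 Krt79 UMIs, on 299 and 16 UMIs there. Krtdap was 1.07 times as high in aged suprabasal cells and 0.786 times as high (0.739 to 0.835) in the Krt79 cells. Both are listed because the 2 groups of cells moved in opposite directions between the libraries. The Krt79 cells had no limit on Krt1 and Krt10, whose share reached 3.24% in a young and 2.98% in an aged cell. The part of keratin-rich Krt79 cells in these ratios was not tested. The difference between the 2 groups was not tested either, since each age has 1 library.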

How the results depend on the processing

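The share of suprabasal cells was higher in the aged library under each alternative run, but its size moved. At a keratin limit of 0.5% it was 9.15% in young and 12.4% in aged cells, and at 2% it was 4.00% and 6.48%. With at least 2000 UMIs the aged share was 14.5%, with at most 5% mitochondrial UMIs the shares were 9.28% and 12.6%, and without the Krt79 limit the young share was 10.4%. Without the 5% of cells with the most UMIs the aged share was 9.00%, and thinned to 1000 UMIs the young share was 9.62%. Genes at least 2-fold higher and lower with age numbered 29 and 32 of 3440 at 100 or more UMIs, against 202 and 270 of 8071 in the main setting. With free RNA subtracted 449 were lower. Krt6a turned to 0.729 times at the 2% keratin limit. It stood at 6.61 times as the mean of per-cell shares, 5.39 at the 0.5% limit, 5.74 without the Krt79 limit and 25.1 without the 5% of cells with the most UMIs. Abhd2 fell under 2-fold, to 1.97 times, without the Krt79 limit. For these results the cause was not tested.

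In RNA-seq, aged against young EpdSC gave 2 suprabasal genes called higher with no filter on low counts. Aged against young HFSC gave 10 with DESeq2, 19 with no filter, 5 with the replicate block and 0 to 8 when 1 library was left out: 8 and 2 without young HFSC replicate 2 or 1, 4 without aged HFSC replicate 1, 3 without either young EpdSC library and 1 without either aged EpdSC library. EpdSC against HFSC in aged mice gave 3 to 5 lower when 1 library was left out. The difference of age effects gave 1 larger and 11 smaller with no filter, and 0 to 7 smaller when 1 library was left out, 7 without young HFSC replicate 2. With the replicate block EpdSC against HFSC gave 26 higher and 5 lower in young and 21 and 6 in aged mice. Samples with the number 1 had correlations of 0.349 (aged) and 0.335 (young) between HFSC and EpdSC in their deviations from the group mean. Between ages the correlations were -0.0816 to 0.319. The labels do not tie a number to a shared animal or batch, and whether samples of 1 number belong together was not settled. The main fit took no pairs, and the replicate block is given as an alternative. The Ly6g6c call in HFSC was lost when only the 4 libraries compared were fitted. With 2 libraries per group, leaving 1 out assumes that the lone library varies like the other groups.

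For promoters, EpdSC over HFSC in aged mice gave 14 higher and 2 lower when scaled by the median over all promoters, and 3 lower within 1000 bases. Aged over young EpdSC gave 1 lower within 1000 bases. Aged over young HFSC gave 2 higher within 1000 bases, and 1 higher and 0 lower when scaled by the median. Among 40 genes named in the RNA-seq comparison of EpdSC and HFSC, 0 reversed direction at either age. One library per age limits the 10x and ATAC-seq values, and 9 of 34 granular genes had 0 UMIs at this depth, which allows up to 3 UMIs of each per library.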
